A study of Mus musculus with 44 samples.

Results

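The 664 regions described here were ATAC-seq peaks of the mouse embryo that were less accessible without Oct4 at both morula stages and not at either stage of the inner cell mass (ICM). They made up 0.436% of the 152393 peaks measured. The peaks were chosen by their measured values. A peak entered when its mean in *Pou5f1*-KO embryos was at least 0.8 below the mean in control (Ctrl) embryos, on the log2 scale, in early and in late morula, and when the KO minus Ctrl difference was above -0.3 at both ICM stages. These 4 differences are therefore given as a description, with no test. Both morula limits were met by 3222 peaks, and 1324 of these were also at or below -0.8 in both ICM stages. The same rule with all signs turned took 698 peaks that were higher in the KO morula alone.

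ATAC-seq measures how often the transposase Tn5 inserts into DNA, which is higher in open chromatin. Males carrying 1 mutant *Pou5f1* allele marked by the fluorescent reporter mKO2 (Oct4 +/mKO2) had been mated with Oct4 flox/flox females whose oocytes expressed Cre from the ZP3 promoter. KO embryos, which were fluorescent, had neither a maternal nor a zygotic functional gene, and Ctrl embryos lacked the maternal copy, so that no wildtype embryo was in the comparison. *Sox2*-KO and Ctrl embryos came from the same scheme with an EGFP reporter (Sox2 +/EGFP males, Sox2 flox/flox; ZP3-Cre females). Embryos of 1 genotype, told apart by fluorescence, were pooled for each library as morulae or as isolated ICMs, and every sample was labelled B6C3F1. The Oct4 line was sampled as morula (E2.75) and late morula (E3.25), with 3 libraries per genotype, and as early ICM (E3.75) and late ICM (E4.5), with 4 libraries per genotype. The Sox2 line was sampled as early and late ICM, with 4 libraries per genotype. Embryos for ICMs had been cultured with the MEK inhibitor PD0325901 at 1 μM, which holds back primitive endoderm, before the ICMs were isolated. Morulae had no such label, so stage, culture, inhibitor and ICM isolation cannot be told apart. In pooled samples, fewer cells with an open region and less opening per cell cannot be told apart either.

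The 44 libraries had like medians and correlations. Values were rlog values, which are log2 insertion counts after correction for library size, with weak peaks drawn toward their mean. The median over all peaks was between 2.35 and 2.63 in every library, and libraries of 1 condition correlated across peaks at r between 0.762 and 0.908. The read depth is unknown. Peaks within 1 kb of start sites of epiblast marker genes had a median rlog of 2.35 in Ctrl morula and 4.45 in Ctrl late ICM of the Oct4 line, and those of primitive endoderm genes 1.83 and 3.00. Of 3 peaks at *Pou5f1* itself, 1 was called lower in *Pou5f1*-KO, at the start site and in early ICM only, and insertions at this locus do not check the genotype.

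Oct4, encoded by *Pou5f1*, is a POU domain factor that binds an octamer sequence, alone or side by side with the HMG box factor Sox2 on a joint OCT-SOX motif. Both are needed for the epiblast, from which the embryo proper forms. Oct4 is present from the oocyte on, whereas Sox2 rises in the inner cells as the blastocyst forms. In the morula the cells also set up polarity and Hippo signalling, and in outer cells TEAD4, GATA3 and CDX2 start the trophectoderm programme.

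The windows that fell most in both KO morula stages, among those whose 3 KO libraries lay below all 3 Ctrl libraries at both, are shown first because their morula values lie farthest apart. All sequences are the + strand of GRCm38 (the build of mm10) from RefSeq. Capitals mark, on either strand, the octamer ATGCAAAT, the word ATGCAA within it, the word TATGCA that overlaps its start, and the words GGAATGT for TEAD factors, AGATAA for GATA factors and TTTATGG for CDX factors.
chr3:145104817-145105016: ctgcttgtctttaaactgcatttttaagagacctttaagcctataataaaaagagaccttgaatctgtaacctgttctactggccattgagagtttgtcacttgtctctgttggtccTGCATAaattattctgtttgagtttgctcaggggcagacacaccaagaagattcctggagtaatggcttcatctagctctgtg
chr10:129459279-129459478: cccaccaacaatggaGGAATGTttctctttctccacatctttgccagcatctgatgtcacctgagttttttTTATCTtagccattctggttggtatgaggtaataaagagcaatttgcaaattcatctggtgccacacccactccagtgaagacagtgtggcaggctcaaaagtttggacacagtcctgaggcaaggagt
chr13:24978741-24978940: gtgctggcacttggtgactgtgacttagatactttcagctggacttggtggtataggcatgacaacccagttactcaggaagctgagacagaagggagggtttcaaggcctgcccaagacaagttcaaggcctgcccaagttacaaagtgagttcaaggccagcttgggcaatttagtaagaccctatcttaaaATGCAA
chr13:21508556-21508755: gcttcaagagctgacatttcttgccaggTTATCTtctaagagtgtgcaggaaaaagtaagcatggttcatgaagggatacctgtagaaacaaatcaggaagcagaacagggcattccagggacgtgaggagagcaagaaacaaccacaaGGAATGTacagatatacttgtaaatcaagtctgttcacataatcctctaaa
chr5:13987212-13987411: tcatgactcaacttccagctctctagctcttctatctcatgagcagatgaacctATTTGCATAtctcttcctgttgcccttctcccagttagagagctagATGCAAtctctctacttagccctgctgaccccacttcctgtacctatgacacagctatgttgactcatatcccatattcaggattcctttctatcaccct
chr5:34747086-34747285: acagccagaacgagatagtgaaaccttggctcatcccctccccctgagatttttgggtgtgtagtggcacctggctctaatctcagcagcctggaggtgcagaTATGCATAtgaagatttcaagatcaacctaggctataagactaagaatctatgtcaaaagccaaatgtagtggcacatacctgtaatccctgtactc
The window on chromosome 5 upstream of *Sema3e* held a full octamer and a second ATGCAA. The *Grk4* window held TATGCA on both strands, in overlap, the *Clca2* and *Gpld1* windows held TATGCA and ATGCAA once, respectively, and the *Olfr787* and *Gm11273* windows each held a TEAD and a GATA word, and neither ATGCAA nor TATGCA. None held the joint OCT-SOX motif.

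Of the 664 windows, 9 matched the joint OCT-SOX motif, searched as the SOX word CATTGTT followed directly by the octamer with at most 3 mismatches. The 4 of these with the lowest mean morula difference follow, to show how far from the full motif the matches were. Capitals also mark the OCT-SOX match here.
chr8:114551705-114551904: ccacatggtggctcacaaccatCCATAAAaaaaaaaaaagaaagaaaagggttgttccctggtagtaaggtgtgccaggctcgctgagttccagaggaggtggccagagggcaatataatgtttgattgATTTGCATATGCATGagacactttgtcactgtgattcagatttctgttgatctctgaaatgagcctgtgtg
chrX:20551631-20551830: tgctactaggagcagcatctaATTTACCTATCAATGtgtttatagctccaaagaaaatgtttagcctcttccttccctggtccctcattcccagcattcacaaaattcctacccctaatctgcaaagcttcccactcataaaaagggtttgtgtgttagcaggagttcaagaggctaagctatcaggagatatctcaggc
chr2:177173228-177173427: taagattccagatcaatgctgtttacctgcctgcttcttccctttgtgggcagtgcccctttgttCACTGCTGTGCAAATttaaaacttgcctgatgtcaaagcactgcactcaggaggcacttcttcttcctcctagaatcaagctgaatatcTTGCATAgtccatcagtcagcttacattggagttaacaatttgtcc
chr19:36143339-36143538: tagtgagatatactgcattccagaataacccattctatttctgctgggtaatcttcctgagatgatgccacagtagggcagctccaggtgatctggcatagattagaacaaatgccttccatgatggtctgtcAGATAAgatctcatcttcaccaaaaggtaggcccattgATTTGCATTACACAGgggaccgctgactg
Each of these 4 matches had 3 mismatches, the most allowed, and with at most 2 mismatches no window of the 664 held the motif (0%, against 0.270% of all peaks). The *Wwox* window, in an intron of that oxidoreductase gene, held a full octamer within its OCT-SOX match. So did the window on chromosome 19, which lay nearest to *Ankrd1*.

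The 6 leading peaks had no overlap of Ctrl and KO in the morula stages, as the choice asked, and differed in their ICM level. At the intergenic peak 5473 bp upstream of *Clca2*, a gene for a chloride channel accessory protein, the early morula values were 3.08, 2.10 and 3.51 in Ctrl and 1.62, 0.85 and 0.35 in KO. In late morula they were 3.00, 4.06 and 2.99 in Ctrl and 0.51, 1.96 and 0.42 in KO. In Oct4-line late ICM this peak was low in Ctrl, with a mean of 0.50 ± 0.31 (SD, n = 4) against 0.95 ± 0.63 in KO. The peak in an intron of *Gpld1*, which encodes an enzyme that cuts GPI anchors, had Ctrl values of 1.54, 2.26 and 2.27 and KO values of 0.89, -0.06 and -0.36 in morula, and means of at most 0.33 in the 4 Oct4-line ICM conditions. The octamer-bearing peak 37964 bp upstream of *Sema3e*, a semaphorin gene, kept more signal. Its morula values were 4.09, 4.10 and 3.32 in Ctrl and 1.95, 1.32 and 2.23 in KO. Its late ICM means were 2.64 ± 0.51 in Ctrl and 2.88 ± 0.55 in KO, and the genotypes overlapped, with 2 of the 4 KO libraries above all Ctrl libraries. The 3 others, near *Olfr787*, *Gm11273* and *Grk4*, differed by -1.55 to -1.83 in morula and by -1.83 to -2.53 in late morula. The *Olfr787* peak had means of 1.62 to 1.90 in the Oct4-line ICM conditions and of 2.64 to 3.58 in those of the Sox2 line.

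Over all 664 peaks the median KO minus Ctrl difference was -1.06 in morula and -1.08 in late morula, with extremes of -2.33 and -2.73. KO libraries lay below every Ctrl library in 372 peaks (56%) in morula, 468 (70.5%) in late morula and 265 (39.9%) at both, against 5.95%, 8.94% and 1.34% of all peaks. Since the rule used these libraries, the shares describe how the chosen peaks look and are no evidence about them. Leaving out 1 Oct4-line library at a time and applying the rule again kept 73.6% to 96.5% of them. The lowest share came without replicate 3 of KO morula. Taking the median over libraries in place of the mean kept 400 of the 664, or 60.2%.

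The peaks nearest to the limits differed by very little from those left out. At the morula limit, 2 members had -0.80 and the nearest 2 outside also had -0.80 at 2 decimals. At the limit for early ICM, an intergenic peak 32941 bp from the start site of the collagenase gene *Mmp13* was the nearest member, at -0.297, and the nearest peak outside was at -0.3001. The late ICM limit lay between -0.297 for a peak nearest to *Ap1s1* and -0.302 for one nearest to *Hmox2*.

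**Figure D1:**
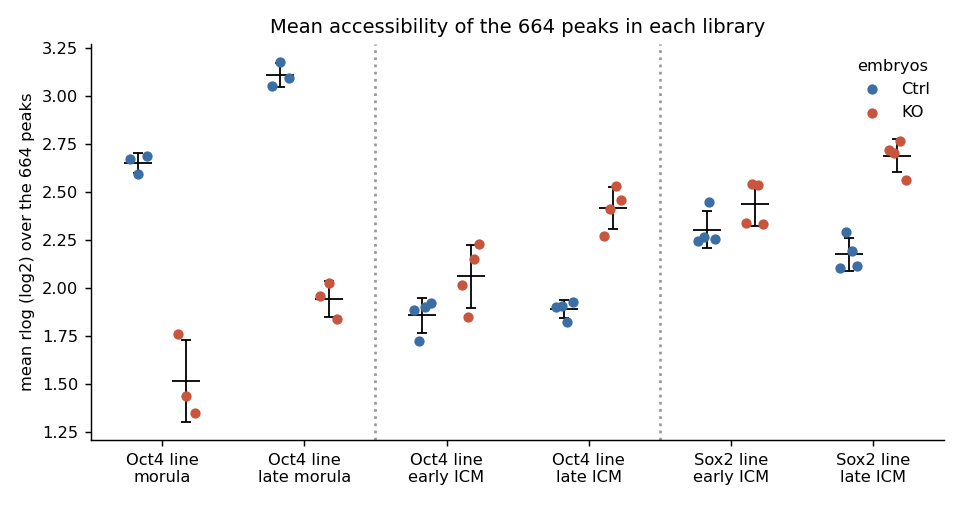
Mean rlog value (log2) over the 664 peaks in each library, for Ctrl (blue) and KO (red), with the mean and SD of each condition in black. Ctrl stands at 2.65 and 3.11 in the morula stages and at 1.86 and 1.89 in Oct4-line ICM, and *Sox2*-KO late ICM libraries lie above all Ctrl libraries of that stage.

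The Ctrl level of the chosen peaks was higher in the morula than in the ICM of the Oct4 line, and the rule used both. Averaged over the 664 peaks, the Oct4-line Ctrl level was 2.65 ± 0.05 (SD, n = 3) in morula, 3.11 ± 0.06 in late morula, 1.86 ± 0.09 (n = 4) in early ICM and 1.89 ± 0.05 (n = 4) at the late ICM stage. In KO it was 1.51 ± 0.22 and 1.94 ± 0.09 in the morula stages and 2.06 ± 0.17 and 2.42 ± 0.11 in the ICM stages. As the plot of library means shows, KO began low and ended above Ctrl, and the lowest KO late ICM library, at 2.27, was above the highest Ctrl one, at 1.93. The rule picks high Ctrl and low KO morula values, so these levels and the shares that follow are set in part by the choice, as are those of the peaks lower at all 4 stages. From the mean of the morula stages to the mean of the ICM stages, the Ctrl level dropped by at least 0.8 in 435 peaks (65.5%), stayed within 0.8 in 221 (33.3%) and went up by at least 0.8 in 8. Among all peaks 22.4% dropped, and among the 1324 peaks that were lower without Oct4 at all 4 stages 3.7% dropped. In KO, 235 of the 664 (35.4%) went up by at least 0.8 and 27 (4.07%) dropped, against 17.6% and 20.2% of all peaks. In Ctrl ICM, 190 (28.6%) were at or above the median of all peaks, against 90.5% of the peaks lower at all 4 stages.

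The steepest falls in Ctrl were at introns of *Rpap2*, which encodes a phosphatase of RNA polymerase II, and of *Clrn1*, a gene for a membrane protein of sensory cells. The *Rpap2* peak had 4.62, 4.27 and 4.34 in Ctrl morula, 2.99, 3.05 and 3.18 in late morula, and 0.94, 0.79, 0.38 and 0.22 in early ICM. The *Clrn1* peak had 4.08, 4.28 and 4.32 in Ctrl late morula and 0.50, 0.37, 1.44 and 1.52 in early ICM. In KO late morula these peaks had 1.62, 1.63 and 1.18 and 3.86, 2.85 and 2.40, in the same order. Neither peak's Ctrl values overlapped between late morula and early ICM. The next, 18714 bp from the start site of *Zfp607a*, fell from means of 4.96 and 4.18 to 2.03 and 1.60.

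Other members had high levels in the ICM. The highest Ctrl ICM level was at a peak 180 bp upstream of a start site of *Tfeb*, a transcription factor of lysosome genes. It had 5.34, 5.87 and 5.60 in Ctrl late morula and 4.08, 5.14 and 4.20 in KO, with no overlap. In early morula it had 5.07, 4.31 and 4.86 in Ctrl and 4.39, 3.55 and 3.48 in KO, with 1 KO library above the lowest Ctrl library. In late ICM it had 6.17, 6.24, 6.19 and 6.69 in Ctrl and 5.62, 6.64, 6.45 and 6.40 in KO, and the genotypes overlapped. The *Mmp13* peak had Ctrl means of 4.88 in late morula and 5.39 in late ICM. A peak in an intron of *Adora1*, an adenosine receptor gene, was 1 of the 9 with an OCT-SOX match and had 5.38, 5.60 and 5.27 in Ctrl late morula against 4.14, 4.85 and 4.60 in KO. In early morula the genotypes overlapped, with 5.78, 5.54 and 5.12 in Ctrl and 5.24, 3.28 and 4.95 in KO. In Oct4-line late ICM its order was turned, at 4.54 ± 0.46 in Ctrl and 5.67 ± 0.25 in KO (n = 4).

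In the ICM the Oct4-line differences lay above the limit by choice. The median was 0.14 in early and 0.46 in late ICM, where the 80126 peaks that met the ICM limits had 0.28 and 0.36.

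**Figure D2:**
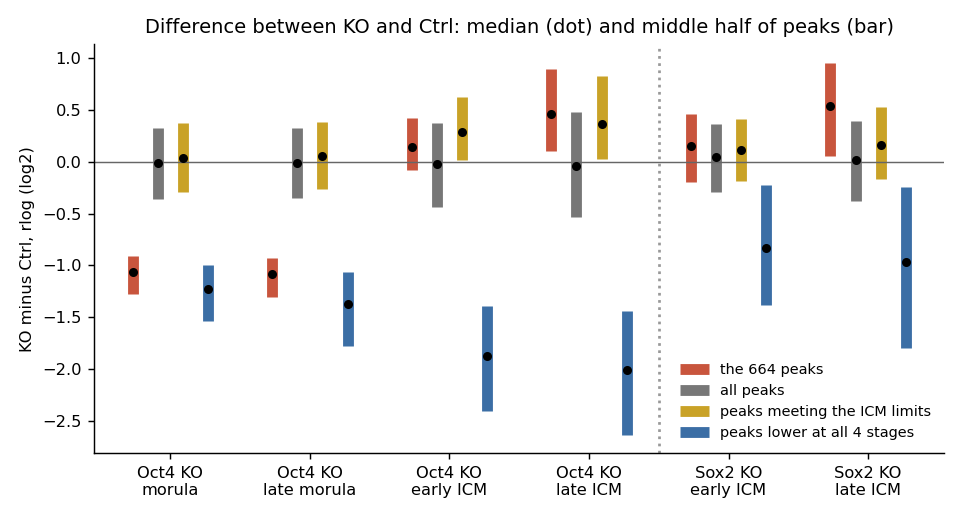
KO minus Ctrl differences (rlog, log2) in 6 comparisons, as the median (dot) and the middle 50% of peaks (bar) for the 664 peaks, all peaks, peaks meeting the ICM limits, and peaks at or below -0.8 at all 4 stages. The Oct4-line differences left of the dotted line were used by the rule. In *Sox2*-KO late ICM the 664 peaks have a median of 0.53, against 0.01 for all peaks and -0.97 for peaks lower at all 4 stages.

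The Sox2 line gave a measurement that the rule did not use, and there 83 members were called higher in late ICM without Sox2 and none lower, while most passed in neither direction. The comparison asks how regions that were lower without Oct4 in the morula stand in the ICM of embryos that lack its partner Sox2. The 83 were 12.5% of the 664 (limma, adjusted p under 0.05), against 2.71% of all peaks and 4.21% of those that met the ICM limits. The count of members called lower was 0 (limma), where 4.88% of all peaks were, and 7 (1.05%) were lower at an unadjusted p under 0.05, against 9.92% of all peaks. The median difference was 0.53, against 0.01 over all peaks and 0.16 over peaks that met the ICM limits, and 528 of the 664 (79.5%) were higher in KO, against 51% of all peaks. All 4 KO libraries lay above all 4 Ctrl libraries in 144 members (21.7%), against 5.63% of all peaks, and below them in 5 (0.753%), against 6.88% of all peaks. The mean over the 664 was 2.10, 2.29, 2.19 and 2.12 in the Ctrl libraries and 2.72, 2.70, 2.77 and 2.56 in the KO libraries, which did not overlap. Leaving out 1 of the 8 libraries at a time, between 46 and 69 were called higher (6.93% to 10.4%), against 1.55% to 2.46% of all peaks. The count was 47 without Ctrl replicate 1, 46 without KO replicate 2 and 47 without KO replicate 3.

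The other sets moved otherwise in the same comparison. Of the 1324 peaks lower without Oct4 at all 4 stages, 563 (42.5%) were called lower in *Sox2*-KO late ICM and 9 were called higher. Of the 698 peaks taken by the rule with signs turned, 53 (7.59%) were called lower and 1 was called higher.

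In early ICM the shift was smaller. The count called higher in *Sox2*-KO was 5 (0.753%), against 0.238% of all peaks, and the count called lower was 0 (limma) where 1.91% of all peaks were, with 42 (6.33%) higher and 18 (2.71%) lower at an unadjusted p under 0.05, against 5.1% and 6.71% of all peaks. The 5 became 2 (0.301%) without Ctrl replicate 2, KO replicate 1 or KO replicate 3, and 3 (0.452%) without Ctrl replicate 4 or KO replicate 2, while 0.12% to 0.322% of all peaks were called without any 1 library. In a fit of only the libraries compared, 1 member was called (0.151%), against 0.0374% of all peaks. The median difference was 0.16, against 0.05 over all peaks and 0.12 over those that met the ICM limits. The mean over the 664 was 2.24, 2.27, 2.45 and 2.25 in Ctrl and 2.34, 2.54, 2.53 and 2.33 in KO, and these overlapped. Whether the late and early effects differed was not tested.

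In the Sox2 line, levels at trophectoderm genes were also higher in KO late ICM. Averaged over 13 peaks within 1 kb of start sites of 6 trophectoderm marker genes, *Sox2*-KO late ICM libraries had 3.55 to 3.78 and Ctrl libraries 2.86 to 3.30. Of these 13 peaks 2 were called higher and 0 lower (limma). Over 14 peaks of 6 epiblast genes the libraries had 3.36 to 3.48 in KO and 3.84 to 4.02 in Ctrl, and 2 were called lower. Over 12 peaks of 6 primitive endoderm genes they had 2.81 to 3.24 in KO and 2.91 to 3.21 in Ctrl. The rlog scale has no true 0, so absence of a marker cannot be read from it. Their part in the result was not tested.

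**Figure D3:**
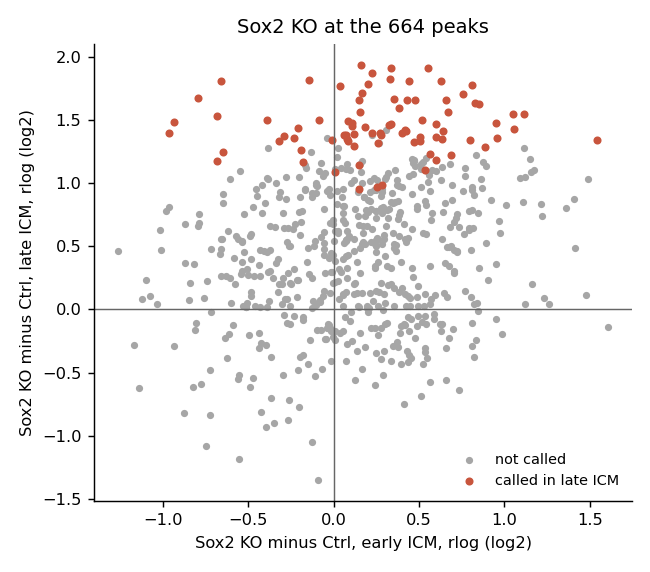
*Sox2*-KO minus Ctrl difference (rlog, log2) in early ICM (horizontal) and late ICM (vertical), 1 point per peak of the 664, with the 83 called in late ICM in red. Most points lie above 0 on the vertical axis, with the 83 among the highest and no member called lower.

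The clearest gain in *Sox2*-KO late ICM was at an intergenic peak 10138 bp upstream of *Trp53bp2*, whose protein ASPP2 binds p53 and takes part in cell polarity. Its late ICM values were 4.34, 5.42, 4.72 and 5.03 in Ctrl and 6.80, 6.39, 6.80 and 6.15 in KO. No library overlapped, and the difference was 1.66 ± 0.31 (SE; limma, adjusted p = 5.12e-05). In the Oct4 line this peak had 3.99, 5.13 and 5.04 in Ctrl morula and 2.48, 3.39 and 3.28 in KO, and in late ICM 4.01 ± 0.48 in Ctrl and 5.12 ± 0.25 in KO (n = 4).

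The second was 22208 bp upstream of *Dennd2d*, which encodes a DENN domain protein that acts on Rab GTPases. Its Sox2-line late ICM values were 4.79, 4.49, 4.60 and 4.89 in Ctrl and 5.95, 6.10, 6.44 and 6.14 in KO, a difference of 1.47 ± 0.29 (SE; limma, adjusted p = 8.82e-05) with no overlap. In early ICM it had 5.54 ± 0.18 in Ctrl and 6.14 ± 0.30 in KO (n = 4), which was not called (limma, adjusted p = 0.378). The third was 28756 bp upstream of *Wdr89*, with 2.70, 3.02, 1.06 and 1.09 in Ctrl and 3.80, 3.78, 4.39 and 3.65 in KO late ICM. The difference was 1.94 ± 0.42 (SE; limma, adjusted p = 0.000569), and the Ctrl libraries were spread more widely than the KO libraries, without overlap.

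In early ICM 5 members were called higher, nearest to *Dnajc11*, *Rmnd5a*, *Mthfd2*, *Cep350* and *Fam3c*, and the first 3 are described. The peak in an intron of *Dnajc11*, a mitochondrial co-chaperone gene, had 2.56, 3.91, 3.26 and 2.87 in Ctrl, and its 4 KO libraries, from 4.06 to 5.20, all lay above these. That difference was 1.49 ± 0.36 (SE; limma, adjusted p = 0.00651), and it was 1.04 in late ICM (limma, adjusted p = 0.0583). The peak 13529 bp upstream of *Rmnd5a*, a ubiquitin ligase subunit gene, had 3.18, 2.29, 2.76 and 1.29 in Ctrl and 4.82, 3.40, 4.16 and 3.31 in KO (limma, adjusted p = 0.0178), and was also called in late ICM (limma, adjusted p = 0.0241). The peak in an intron of the folate enzyme gene *Mthfd2* lay 2646 bp from a start site of *Mob1a*, whose protein activates the Hippo kinases. It had 1.59, 1.01, 1.71 and 0.91 in Ctrl and 3.21, 3.31, 2.53 and 2.60 in KO early ICM, with no overlap (limma, adjusted p = 0.0298). In late ICM its difference was -0.14, with KO values from 0.55 to 2.99 around Ctrl values from 1.80 to 2.62. The *Rmnd5a* and *Mthfd2* calls were lost when the fit held only the libraries compared (limma, adjusted p = 0.0859 and 0.0932).

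**Figure D4:**
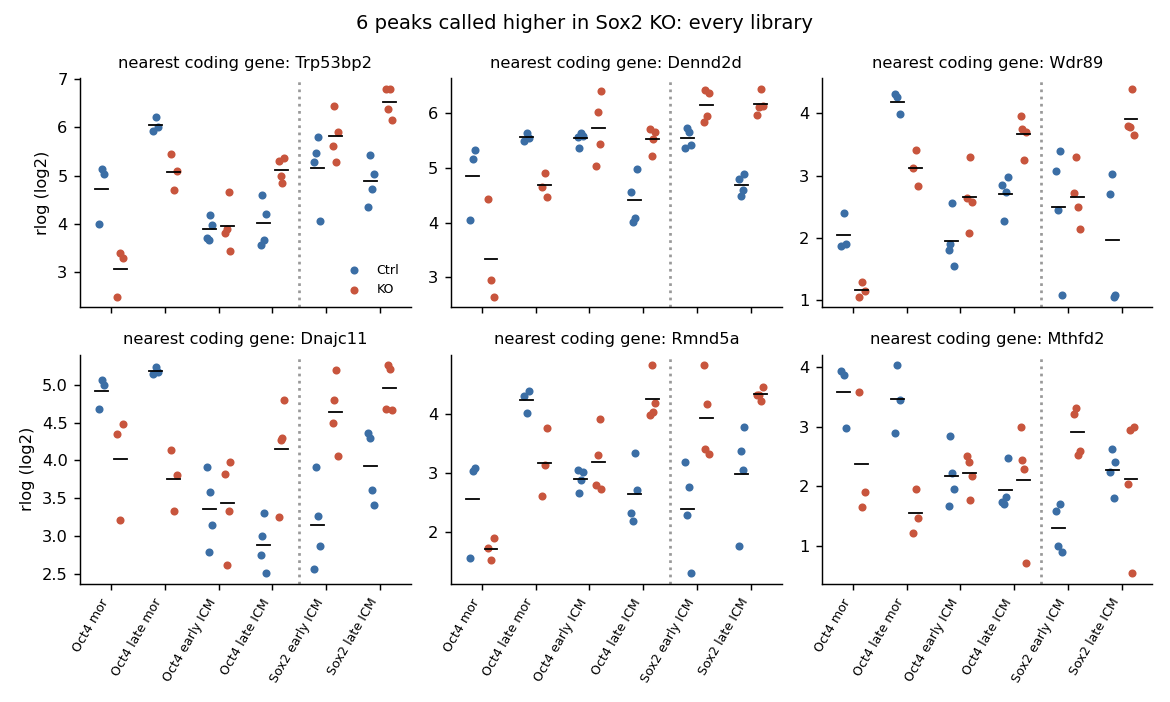
The 6 peaks called higher in *Sox2*-KO with the lowest adjusted p in late ICM (top row) and early ICM (bottom row), as rlog (log2) in every library, Ctrl in blue and KO in red, with the mean as a line. In the morula stages the KO means lie below the Ctrl means, and in the Sox2 line the KO libraries of the stage in which each was called lie above all Ctrl libraries.

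Members whose Oct4-line Ctrl level dropped by at least 0.8 from morula to ICM were called higher in *Sox2*-KO late ICM in 41 of 435 cases (9.43%), against 3.31% of all peaks with such a drop, and those within 0.8 in 40 of 221 (18.1%), against 3.04%. Whether these shares differed was not tested.

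Within the Sox2-line Ctrl embryos, 2 members were called lower in late than in early ICM, against 0.121% of all peaks, and 0 higher (limma), against 0.474% of all peaks, with 22 (3.31%) higher at an unadjusted p under 0.05, against 6.91%. The first was the *Grk4* intron peak, with 1.81, 2.76, 3.04 and 2.39 in early and 0.30, 0.85, 0.17 and 1.53 in late ICM, a difference of -1.79 ± 0.46 (SE; limma, adjusted p = 0.0381). The second lay nearest to *Tgfbr2*, a TGF-beta receptor gene, and was named after its value was seen. Neither call was made when the fit held only the Sox2-line Ctrl libraries.

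The Ctrl ICMs of both lines did not have the same level at these regions. The Sox2-line Ctrl mean over the 664 was 2.30 ± 0.10 in early and 2.18 ± 0.09 in late ICM (SD, n = 4), against 1.86 ± 0.09 and 1.89 ± 0.05 in the Oct4 line. The median difference per peak was 0.42 in early and 0.27 in late ICM, where over all peaks it was -0.04 and -0.01, and over the peaks lower at all 4 stages 0.11 and 0.28, so the late ICM value was not particular to the 664. At the *Clca2* peak the late ICM values were 2.99, 2.35, 3.01 and 3.04 in Sox2-line Ctrl and 0.61, 0.87, 0.16 and 0.37 in Oct4-line Ctrl. At this peak the lines did not overlap. The rule used the Oct4-line Ctrl libraries and not those of the Sox2 line, and line, library preparation and that choice cannot be told apart.

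The windows held short octamer words, and words for GATA, TEAD and CDX factors, more often than all peaks did. Either ATGCAA or TATGCA, which overlap in TATGCAA, was in 240 of the 664 windows (36.1%). The share was 14.6% of all peaks and 38.1% of the 1324 peaks lower at all 4 stages. Unlike the octamer, these short words were not on the list of motif words. Among all words of their length, ranked by the ratio of these same 664 windows to all peaks, ATGCAA had rank 2 and TATGCA rank 8. Their excess over all peaks is therefore a description, with no test. The full octamer was in 35 (5.27%), against 2.39% of all peaks and 18.4% of the peaks lower at all 4 stages. OCT-SOX was in 9 (1.36%), against 1.5% and 17.8%. With 1 mismatch more, OCT-SOX was in 10.5% of members and 6.58% of all peaks, so its order against all peaks turned with the mismatches allowed. The word ATGCAA was in 25.2% of members, 9.2% of all peaks and 31.8% of the peaks lower at all 4 stages. For ATTTGC, the other end of the octamer, the shares were 13.9%, 8.26% and 26.7%, in that order. A tandem ATGCAT pair was in 5 windows (0.753%), against 0.106% of all peaks. The SOX word was in 29 (4.37%), against 3.04%.

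The GATA word was in 219 windows (33%), against 17.5% of all peaks and 25.9% of the peaks lower at all 4 stages. The TEAD word was in 99 (14.9%), against 7.53% and 7.33%. The CDX word was in 67 (10.1%), against 3.03% and 2.42%. Words found less often than in all peaks were TCAAGGTCA of ESRRB and NR5A factors (1.05% against 3.39%), GCCTNAGGC of TFAP2C (0.602% against 1.92%), GGGTGTGG of KLF factors (6.17% against 8.86%), GGATTA of OBOX and OTX factors (7.68% against 11.5%) and AGGGGGCGC of CTCF (0 windows against 0.657%). TGAGTCA of AP-1 was near the background, at 5.12% against 5.92%, and AGGTGTGA of EOMES was at 4.07% against 2.62%. In the 698 peaks taken by the rule with signs turned, 33.7% held GGATTA, 2.72% the TEAD word and 0.143% the octamer.

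**Figure D5:**
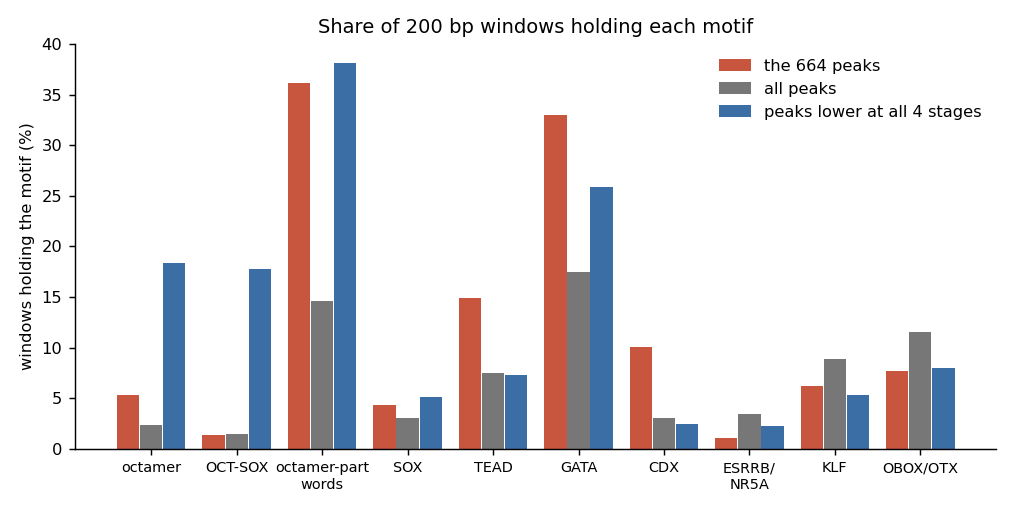
Share of 200 bp windows (%) that hold each motif on either strand, for the 664 peaks, all peaks and the peaks lower at all 4 stages; octamer-part words are ATGCAA or TATGCA. The 664 peaks reach 36.1% for these words and 1.36% for OCT-SOX, and stand above both other sets for TEAD, GATA and CDX words. The octamer-part words had ranks 2 and 8 in a ranking of words in the same windows, so their excess is a description.

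The windows had a lower GC content, with a median of 45.5% against 50% over all peaks and 45% over the peaks lower at all 4 stages, and words differ in base content. Among windows between 42% and 48.5% GC, the middle 50% of the members, ATGCAA or TATGCA was in 39.5% of members and 19.3% of all peaks, the GATA word in 35.2% and 25.1%, the TEAD word in 15.9% and 9.43%, the CDX word in 12.2% and 4.23%, and the full octamer in 5.97% and 4%. Of all words of 6 letters, the highest ratio of members to all peaks was that of AATAAT (12.2% against 4.38%). It was followed by ATGCAA (25.2% against 9.2%) and TCATGA (10.1% against 3.79%), and TATGCA had rank 8. The shares of ATGCAA or TATGCA within the GC range come from the same members and are likewise a description. These matches are letters in a window and show no binding.

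The regions lay near start sites less often than all peaks, as did the peaks lower at all 4 stages. Of the 664, 10 (1.51%) were within 100 bp of one, against 7.79% of all peaks and 1.06% of the peaks lower at all 4 stages, and 60 (9.04%) within 1 kb, against 19.5% and 8.46%. Introns held 342 (51.5%) and intergenic DNA 271 (40.8%), against 43.8% and 39.6% of all peaks. They were spread over all chromosomes in the table, from which the authors had left out Y, with 36 of the 664 within 10 kb of another, and 21.4% were mostly repeat-masked sequence, against 23.2% of all peaks. The peaks taken by the rule with signs turned differed in this, at 44.8%.

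None of the 664 lay within 50 kb of a start site of 35 listed pluripotency genes, where 0.547% of all peaks and 14 of the 1324 peaks lower at all 4 stages (1.06%) did. The cleavage stage list (19 genes) and the FGF and ERK list (24 genes) also had 0 members, with 0.142% and 0.368% of all peaks. The list of polarity, adhesion and Hippo genes (34 genes) had 7 members (1.05%), against 0.604% of all peaks. Metabolism (32 genes) had 4 (0.602%), against 0.436%, primitive endoderm (17 genes) 3 (0.452%), against 0.228%, and trophectoderm (25 genes) 1 (0.151%), against 0.413%. With at most 7 members per list, 1 peak changes these shares by 0.151 percentage points.

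Of the polarity and Hippo peaks, that 41860 bp from a start site of *Rdx*, whose product radixin links membranes to actin, had the lowest mean morula difference, with 3.26, 4.49 and 3.82 in Ctrl and 2.45, 1.90 and 2.68 in KO late morula. The peak 8357 bp from a start site of the Hippo kinase gene *Lats1* had 4.35, 4.77 and 4.65 in Ctrl and 3.37, 2.91 and 3.60 in KO late morula, and 3.29 ± 0.52 and 3.51 ± 0.60 in late ICM. The peak in an intron of *Pard3*, a scaffold of the apical polarity complex, lay 518 bp downstream of a start site. It had 4.78, 4.87 and 5.10 in Ctrl and 3.49, 3.57 and 3.80 in KO late morula. At all 3 peaks the late morula libraries did not overlap. In early morula, KO replicate 1 lay within the Ctrl values at the *Rdx* and *Pard3* peaks, with 4.17 and 3.77, and the *Lats1* peak also overlapped, with 2.10, 3.24 and 4.17 in Ctrl and 1.75, 2.46 and 1.32 in KO. *Rock1*, a kinase of the actomyosin cortex, had 2 weak members, with Ctrl morula means of 1.61 and 1.47, and the last polarity member, 43344 bp from a start site of the tight junction gene *Tjp1*, had a mean morula difference of -0.87.

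Of the lineage genes, *Gata3*, a trophectoderm transcription factor, had a member in an intron 11779 bp from its start site. It had 4.68, 3.65 and 4.12 in Ctrl and 3.61, 3.09 and 2.37 in KO early morula, which did not overlap. In late morula it had 3.68, 3.96 and 4.78 in Ctrl and 2.18, 2.66 and 3.88 in KO, and in late ICM 4.87 ± 0.58 and 4.60 ± 0.83, and the genotypes overlapped at both. A peak 48865 bp from a start site of *Gata6*, a primitive endoderm factor, had 4.19, 4.34 and 3.99 in Ctrl and 1.73, 3.17 and 4.10 in KO late morula, with KO libraries far apart and 1 of them within the Ctrl range. The endocytic receptor gene *Lrp2* had 2 members, and that at 39353 bp was called higher in *Sox2*-KO late ICM, with 1.27, 0.42, 2.14 and 1.91 in Ctrl and 3.26, 3.30, 2.70 and 3.17 in KO (limma, adjusted p = 0.00886).

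Of the metabolism genes, *Hk2*, which encodes a hexokinase, had a member in an intron, 16097 bp from a start site. Its late morula values were 6.02, 6.08 and 6.10 in Ctrl and 5.35, 4.85 and 4.44 in KO, with no overlap, while its early morula values overlapped, at 5.06, 3.70 and 4.46 in Ctrl and 3.66, 4.24 and 2.61 in KO. In late ICM it had 4.36 ± 0.43 in Ctrl and 5.54 ± 0.22 in KO of the Oct4 line, and 4.81, 5.06, 4.90 and 4.73 in Ctrl and 5.65, 6.06, 5.79 and 5.83 in KO of the Sox2 line, where it was called higher (limma, adjusted p = 0.0277). The peak in an intron of *Pfkp*, a phosphofructokinase gene, lay 124 bp upstream of a start site. It had 2.72, 2.86 and 3.27 in Ctrl and 2.12, 0.74 and 0.77 in KO early morula. In late morula the genotypes overlapped, at 2.32, 1.38 and 2.85 in Ctrl and 0.43, 0.84 and 1.78 in KO. The peak had 0.99 ± 0.28 in Ctrl and 0.88 ± 0.16 in KO late ICM of the Oct4 line (n = 4). Peaks near *Gapdh* and *Pfkl* had mean morula differences of -0.98 and -0.92.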

How the data were processed

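ATAC-seq libraries of pooled embryos gave insertion counts in 200 bp windows. Per the methods and labels, the authors aligned reads by Bowtie2 (mm10), removed duplicates by Picard, required a mapping quality of at least 30, shifted reads by +4 and -5 bp for Tn5, called peaks with MACS2, counted insertions with bedtools and deposited rlog values (log2) from DESeq2, in 1 table of libraries and 1 of condition means. Tool versions are not given in the sources used here. rlog shrinks weak peaks, which understates their differences, and holds no depth, so no counting interval can be given.

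Peaks were chosen on the deposited means (KO minus Ctrl of -0.8 or lower at both morula stages, above -0.3 at both ICM stages). The members, gene lists and motif words were chosen with earlier results of these data known. limma 3.58.1 (R 4.3.3; lmFit, contrasts, eBayes with trend) was fitted to all 152393 peaks and 44 libraries with 1 mean per condition and Benjamini-Hochberg adjustment, two-sided, after it had been tested on simulated data. Nothing states that libraries of a condition came from separate matings, so p-values measure the spread between these pools. Same-numbered Ctrl and KO libraries deviated together at Oct4-line late morula (r of 0.11 to 0.19) and early ICM (0.12 to 0.16), by correlation only. With a replicate block, the 1 call of those stages given here, at *Pou5f1*, was kept. Positions use GENCODE vM21 and distances run from a window's centre to the nearest start site of a protein-coding gene, or of the listed gene. Words were searched on both strands. Python 3.11.15, pandas 2.3.3 and matplotlib 3.10.9 were used.

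Named peaks were the 6 members with the lowest mean morula difference and no overlap of libraries at both stages, up to 3 called in each direction in each Sox2 comparison by adjusted p, up to 12 within 50 kb of a listed gene, the 3 with the highest Ctrl ICM level, the 3 with the steepest Ctrl fall, 4 with OCT-SOX, and those nearest the limits. Members near *Pfkl*, *Tjp1*, *Tgfbr2*, *Cep350* and *Fam3c* were named outside this rule, after their values were seen.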

Additional observations from a re-analysis of the deposited data

Results flagged for a closer look

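The mean over the 664 peaks in *Sox2* Ctrl early ICM replicate 3, at 2.45, stood apart from the other 3 libraries of its condition, with a gap to the nearest of 0.89 of the range. It was looked for in 32 groups of 4, where chance alone would mark about 1 in 20.

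In the Oct4 line the mean over the 664 peaks differed by -1.17 (KO minus Ctrl) in late morula and by 0.53 in late ICM, with all KO libraries below all Ctrl libraries in the first and above them in the second. The rule fixed the first and bounded the second, and the difference between the stages was not tested.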

How the results depend on the processing

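The rule took 210 peaks with limits of 1.0 and 0.2, 2110 with 0.6 and 0.4, 262 when weaker peaks (below the median level) were dropped, and 634 to 844 without any 1 Oct4-line library. The 83 members called higher in *Sox2*-KO late ICM became 46 to 69 without any 1 library, 59 of 262 (22.5%) among stronger peaks, against 3.72% of all such peaks, and 72 with quantile normalization (10.8%, against 2.28%). In a fit of only the libraries compared they became 119 (17.9%, against 3.93%). The 5 called higher in early ICM became 3 among stronger peaks (1.15%, against 0.283%), 1 in a fit of only the libraries compared (0.151%, against 0.0374%), and 2 to 6 without any 1 library. Members called lower, 0 in both comparisons, became 2 in late ICM in a fit of only the libraries compared, and 0 to 2 without any 1 library in each. The 2 called lower from early to late Sox2-line Ctrl ICM became 0 among stronger peaks, 0 in a fit of only the libraries compared, and 0 to 2 without any 1 library. The cause of these changes was not tested.

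In both Sox2-line comparisons at least 1 same-numbered pair of Ctrl and KO libraries correlated at under 0.1, with the 8 pairs at -0.02 to 0.29, so the numbers were not shown to pair these libraries. Of the 22 pairs of both lines, 19 were closest to their own number. With a replicate block within line, 1 member was called lower in early and 1 in late ICM of *Sox2*-KO, and 92 higher in late ICM (13.9%, against 3.02% of all peaks). With a replicate block within line and stage, chosen after seeing the data, 10 were called higher (1.51%, against 0.598% of all peaks) and 2 lower (0.301%, against 2.62%) in early ICM, and 116 higher (17.5%, against 4.22%) and 2 lower (0.301%, against 5.88%) in late ICM.

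With 1 mismatch more, 32.53% of members held an octamer, against 15.74% of all peaks, and 10.54% an OCT-SOX match, against 6.582%. With 1 mismatch fewer 0% held OCT-SOX, against 0.270%, while the octamer allows none fewer. Within 1 kb of a start site lay 9.036%, against 19.5%. The *Trp53bp2*, *Dennd2d* and *Wdr89* peaks were called under all 13 alternatives, whereas *Rmnd5a* and *Mthfd2* lost their early ICM call under 5 each and *Dnajc11* under 1. Unknown depth and 3 or 4 pools per condition limit what could be called.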
